A study of Homo sapiens with 13 samples.

Results

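Goblet cells are the mucus-secreting cells of the intestinal lining, and 10 genes of their secretory programme were followed here through knockdown of SOX9 and of Y14 in a colon tumour cell line. The genes are TFF1, TFF2, TFF3, MUC2, FCGBP, REG4, AGR2, AGR3, CREB3L1 and SPDEF. They were picked by symbol, and all 10 were found among the 23886 gene symbols listed in each of the deposited tables.

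Goblet cells fill the gut lumen with mucus, a gel built on large glycosylated mucins that are folded in the endoplasmic reticulum (ER), decorated with O-linked sugars and stored in granules. Trefoil peptides are released with the mucins and take part in mucosal repair, while ER proteins of the AGR family assist mucin folding. The lineage is set up when Notch signalling is low, and transcription factors such as SPDEF act in goblet cell maturation. SOX9 is a transcription factor of the crypt base that is needed for Paneth cells, another secretory type. Y14, encoded by RBM8A, belongs to the core of the exon junction complex, a mark left on spliced mRNA.

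All samples were DLD-1, an established line from a colorectal adenocarcinoma, transfected with 50 nM of small interfering RNA (siRNA), harvested after 72 h and sequenced as stranded libraries of polyadenylated RNA. In experiments 1 and 2, 3 samples received a control siRNA (siCtrl) and 4 an siRNA against SOX9 (siSOX9). Of these, 1 siCtrl and 1 siSOX9 sample came from experiment 2. In experiment 3, 2 samples received siCtrl and 4 received an siRNA against Y14 (siY14), 2 with each of the siRNAs numbered 9 and 10. The authors' deposited tables set siSOX9 against the siCtrl of experiments 1 and 2, and siY14, with both siRNAs pooled, against the siCtrl of experiment 3, so the comparisons share no control samples. The labels do not say that the samples were separate cultures, so the p-values measure only the spread among the libraries, and this spread may be technical.

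The tables give, for each gene, a mean normalised read count per group, that is reads divided by a size factor for the depth of each library. Because these means carry many digits, the whole reads behind them could be recovered per library, for 10210 genes of the siSOX9 table and 8893 genes of the other. Recovery succeeded in both tables for 9 of the 10 genes, the exception being AGR2. Recovered libraries carry no sample name and are lettered from a, the deepest of its group. Libraries were estimated to hold 24.8 to 184 M counts in the siSOX9 experiments, with library a of each group over 4 times deeper than the next, and 47.2 to 71.6 M counts in experiment 3. No label links a recovered library to experiment 1 or 2, so no value within either experiment alone could be given. Library a of each group may be its 1 sample from experiment 2, but this could not be checked. A gene was called where its adjusted p was under 0.05, with Benjamini-Hochberg adjustment over all genes. The main calls are those of the authors' deposited tables, and a limma-voom fit of the recovered reads, restricted to genes with a mean of at least 10, gave standard errors and a second set of calls.

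SOX9 fell from 24468 to 9067 mean normalised counts with siSOX9 in the authors' deposited table (adjusted p 1.40e-04). RBM8A was listed at 0 in every group of the authors' deposited tables, so the Y14 knockdown could not be checked. Epithelial markers were abundant, with KRT8 at 139861 normalised counts with siCtrl in the authors' deposited siSOX9 table. The immune marker PTPRC was listed there at 0 and the T cell marker CD3E at 0.193, and the 5 immune markers summed to 70.4, nearly all from CD68. Of 8 fibroblast and endothelial markers, COL1A2, LUM, DCN and CDH5 were listed at 0 with siCtrl there, and the list summed to 175 normalised counts with siCtrl and 170.3 with siSOX9, and to 147 and 85.2 for siY14, in the authors' deposited tables. COL1A1, a collagen chain, rose with siSOX9 (log2 change 1.28, adjusted p 0.0217), and PDGFRB, a growth factor receptor, fell (-0.88, adjusted p 0.0247) in the authors' deposited table. With siY14, 0 of the 8 passed in DESeq, with 1 lower at an unadjusted p under 0.05, and 0 of 3 tested passed in limma-voom. The 4 siY14 libraries lay in pairs: over 4696 genes the median absolute log2 difference was 0.12 between a and c and 0.12 between b and d, against 0.37 to 0.40 for the other pairings. Which pair received which siRNA cannot be told, and the tests took the 4 libraries as independent.

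In control cells the 10 genes covered a wide range of levels. Per kilobase of exon, AGR2 stood at 9602 normalised counts with siCtrl in the authors' deposited siSOX9 table, a level above 99.0% of genes with reads. TFF1 at 678 and TFF3 at 663 per kilobase followed, in the upper part of the distribution. REG4 at 22.5, TFF2 at 16.5, SPDEF at 10.4 and CREB3L1 at 7.64 per kilobase lay between percentiles 30.5 and 36.1. FCGBP at 1.43, AGR3 at 1.31 and MUC2 at 0.344 per kilobase were lowest, and MUC2 rested on 18 reads over the 3 siCtrl libraries. Neighbours in this order were not tested against each other, and for AGR3 the spread between siCtrl libraries was larger than its mean. In the siCtrl group of experiment 3, AGR2 again led, at 11501 per kilobase, followed by TFF1 at 506 and TFF3 at 247, while MUC2 and AGR3 were listed at 0 in the authors' deposited table. Exon lengths came from GENCODE v29, not from the authors' annotation, and matched 91.1% and 91.2% of the genes with reads.

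**Figure D1:**
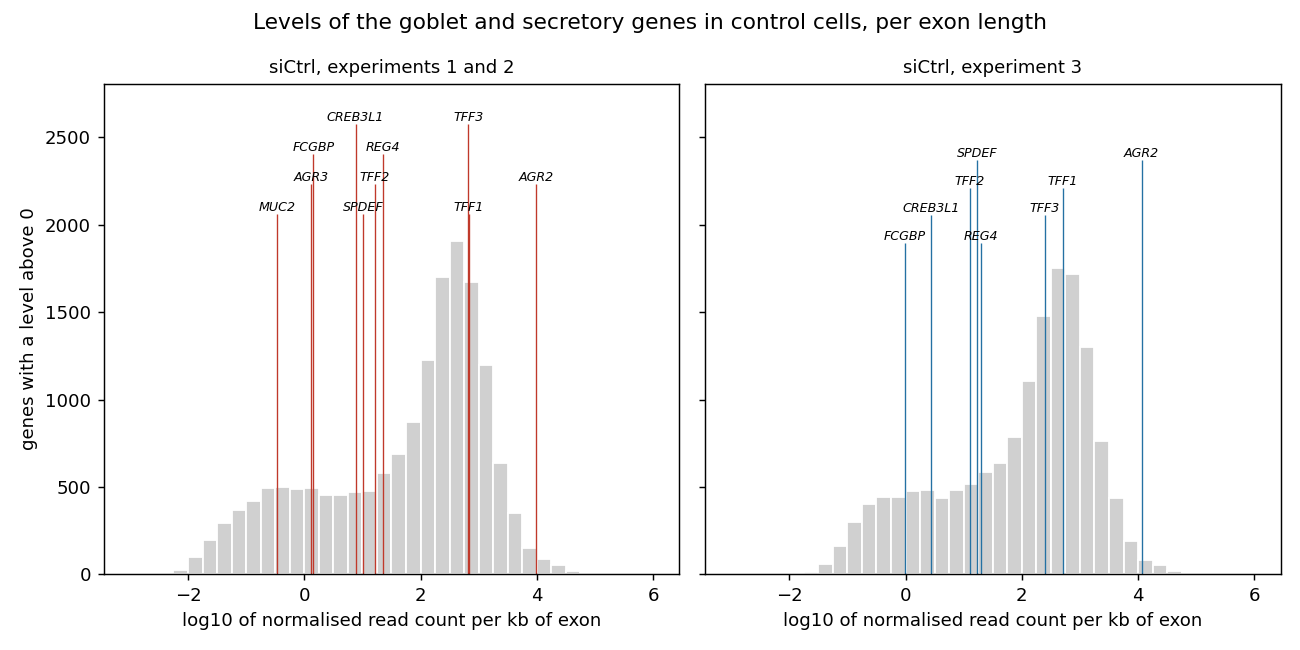
Grey bars count genes by the log10 of their siCtrl normalised read count per kilobase of exon, in the siSOX9 table (left) and the siY14 table (right), and coloured lines mark the goblet and secretory genes with a level above 0. AGR2 lies at the far right of both panels, TFF1 and TFF3 in the main peak, and the other genes in the low shoulder.

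The trefoil peptides are small secreted proteins that are packed with mucins. TFF1 fell with siSOX9. In the siSOX9 experiments it had 349, 407 and 365 normalised counts in siCtrl libraries a to c, and 126, 158, 167 and 155 in siSOX9 libraries a to d. All siSOX9 libraries lay under all siCtrl libraries, with means of 374 ± 30.1 (SD, n = 3) and 151 ± 17.9 (SD, n = 4). The log2 fold change of TFF1 was -1.30 (adjusted p 7.79e-08) in the authors' deposited table, and -1.36 (SE 0.13) with an adjusted p of 1.06e-04 in limma-voom. Over the alternatives to the authors' value, that fit among them, it ran from -1.44 to -1.19, and it passed in 13 of 13 with a test.

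With siY14, TFF1 had 242, 113, 236 and 123 normalised counts in libraries a to d, against 264 and 293 in siCtrl libraries a and b. The groups did not overlap, but the siY14 libraries were split, with a and c just under siCtrl and b and d far under it. The log2 fold change was -0.64 in the authors' deposited table (adjusted p 0.297), and -0.72 (SE 0.33) with an adjusted p of 0.169 in limma-voom. The split followed the library pairs seen over all genes, and the part of each siRNA in it cannot be told apart.

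TFF3, the trefoil peptide most typical of intestinal goblet cells, had 857, 718 and 747 normalised counts with siCtrl and 661, 631, 492 and 559 with siSOX9. The groups did not overlap, and the means were 774 ± 73.3 (SD, n = 3) and 586 ± 75.7 (SD, n = 4). The log2 fold change was -0.40 in the authors' deposited table, where the adjusted p of 0.462 missed the threshold, and -0.39 (SE 0.12) with an adjusted p of 0.0466 in limma-voom. Over 13 limma settings, that fit among them, it passed in 6, with adjusted p from 1.15e-04 to 0.177. In experiment 3, TFF3 had 272 and 306 normalised counts with siCtrl and 318, 226, 330.2 and 209.7 with siY14, so that the groups overlapped. Its log2 fold change there was -0.09 (adjusted p 0.986) in the authors' deposited table.

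TFF2, a trefoil peptide best known from the stomach, was scarce. It had 13.1, 13.6 and 14.5 normalised counts with siCtrl and 4.19, 4.94, 5.05 and 4.14 with siSOX9, from 62 and 24 reads in all. These groups were well apart, with a log2 change of -1.58 in the authors' deposited table, but the adjusted p was 0.394. TFF2 was under the limma-voom minimum, and with that minimum removed its limma-voom adjusted p was 0.0201. With siY14 the libraries, from 3.48 to 8.80, lay within the siCtrl values of 4.48 and 16.6 except for the lowest, and the authors' deposited table gave an adjusted p of 0.844.

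**Figure D2:**
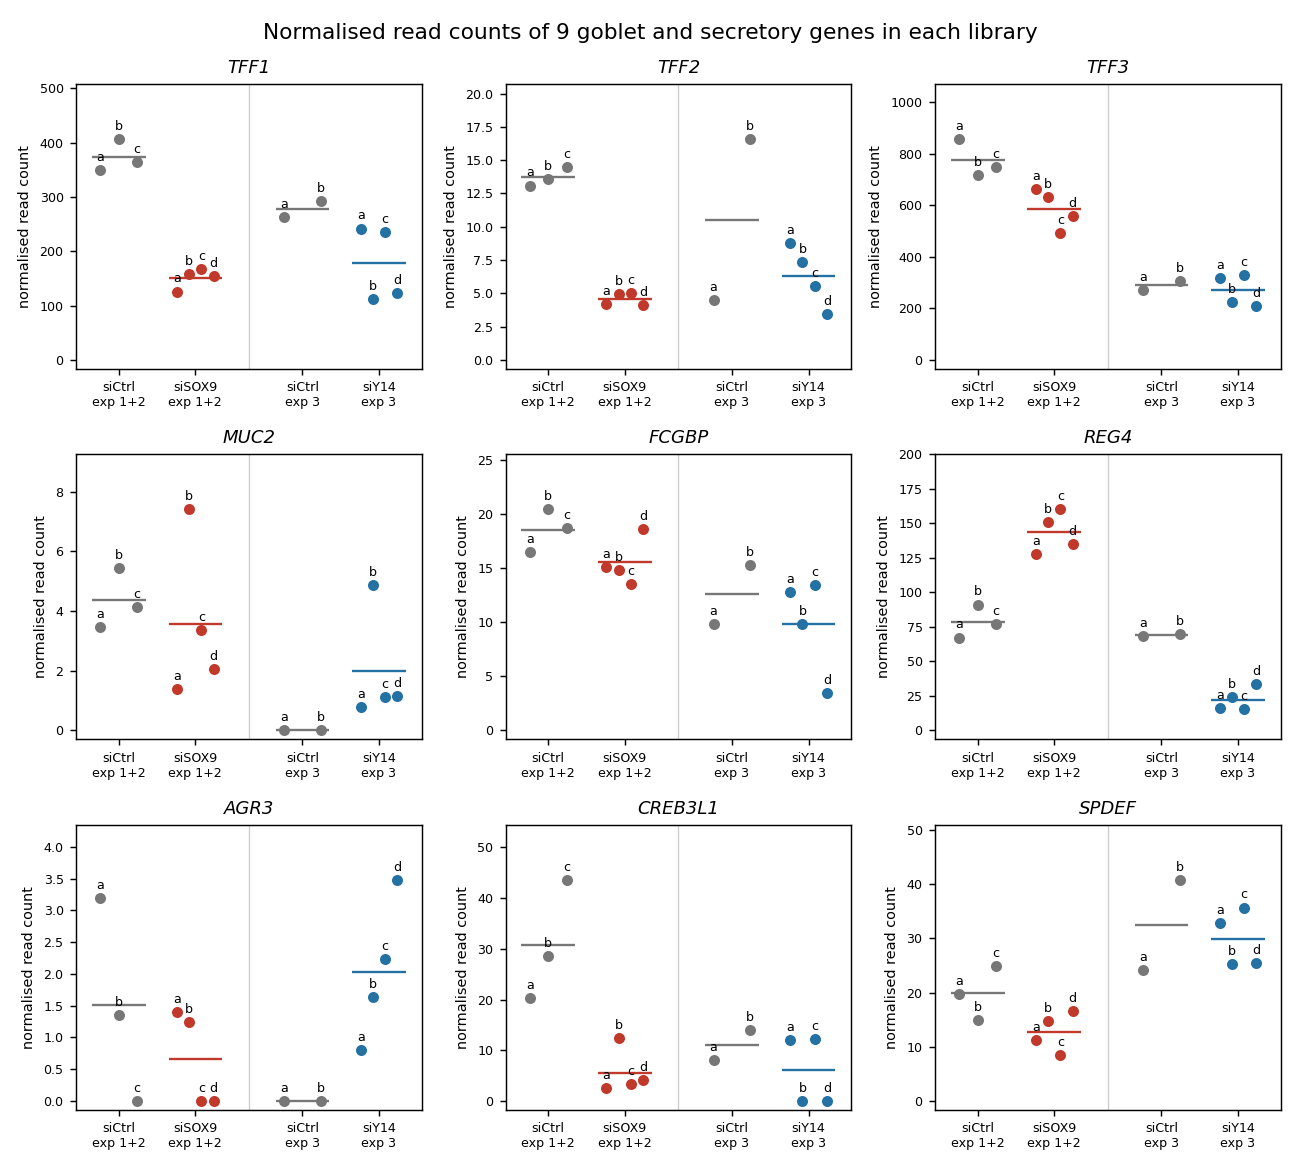
Each point is the normalised read count of a gene in a recovered library, lettered by depth within its group, and each bar is the group mean, for the 9 genes whose reads were recovered (exp, experiment). The siSOX9 points of TFF1, TFF2, TFF3 and CREB3L1 all lie under the siCtrl points, while those of REG4 lie above them with siSOX9 and under them with siY14.

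MUC2 encodes the gel-forming mucin of the colon. With siCtrl in the siSOX9 experiments it had 3.48, 5.45 and 4.15 normalised counts from 18 reads, and with siSOX9 1.40, 7.41, 3.37 and 2.07 from 14 reads. The groups overlapped, and the authors' deposited table gave a log2 change of -0.29 (adjusted p 1.00). In experiment 3, MUC2 had 0 reads in both siCtrl libraries, which allows up to 3 reads, or 1.58 normalised counts over the group (limits of this kind cover counting error only). The siY14 libraries held 1, 6, 1 and 1 reads, or 0.800, 4.89, 1.12 and 1.16 normalised counts. Pooled, they stood at 2.12, or 1.35-fold that limit, with no allowance for counting error in the siY14 reads. Library b held most of these reads, and the authors' deposited table gave an adjusted p of 0.599, so the difference did not pass.

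FCGBP encodes a large mucus protein that binds to MUC2. It had 16.5, 20.4 and 18.7 normalised counts with siCtrl and 15.1, 14.8, 13.5 and 18.6 with siSOX9, which overlapped. The limma-voom log2 fold change was -0.20 (SE 0.24) with an adjusted p of 0.627. In experiment 3 it had 9.86 and 15.3 with siCtrl and 12.8, 9.78, 13.4 and 3.48 with siY14, where library d, with 3 reads, was lowest. The limma-voom log2 fold change was -0.38 (SE 0.52) with an adjusted p of 0.630, and the authors' deposited tables gave adjusted p of 1.00 and 0.957 for the respective knockdowns.

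REG4 and AGR2 were the genes of the set called in both authors' deposited tables, and the bases before their transcription starts are shown for that reason. The share of all genes called in both was not counted. Each sequence is the 250 bases upstream of the RefSeq start on build GRCh38.p14, read 5′ to 3′ on the strand of the gene, at chr1:119811461-119811710 (minus strand) for REG4 and chr7:16805000-16805249 (minus strand) for AGR2. Capitals mark every match, on either strand, to 3 motifs: ACAAT, a core form of the site bound by SOX proteins, a second such form spelled ACAAAG, and the TATA box spelled TATAAA. A match on the opposite strand appears as its reverse complement.
REG4: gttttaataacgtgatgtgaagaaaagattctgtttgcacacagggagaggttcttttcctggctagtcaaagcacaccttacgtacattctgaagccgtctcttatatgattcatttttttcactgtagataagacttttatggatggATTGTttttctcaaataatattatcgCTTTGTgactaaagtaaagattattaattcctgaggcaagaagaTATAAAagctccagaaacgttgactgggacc
AGR2: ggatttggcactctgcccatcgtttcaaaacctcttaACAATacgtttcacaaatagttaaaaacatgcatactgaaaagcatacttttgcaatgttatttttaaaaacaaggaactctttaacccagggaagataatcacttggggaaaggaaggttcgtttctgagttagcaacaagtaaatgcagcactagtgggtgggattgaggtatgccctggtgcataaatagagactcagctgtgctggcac
REG4 held an ACAAT match on the opposite strand from 101 to 97 bases before the start, an ACAAAG match on the opposite strand from 75 to 70, and TATAAA from 31 to 26. AGR2 held an ACAAT match on its own strand from 213 to 209 bases before the start. Matches of this length are frequent: of 35116 RefSeq promoters, 24.6% held ACAAT, 13.7% ACAAAG and 10.7% TATAAA in the same window. Of the 10 genes 7 had an entry in the promoter table, and 2 of these 7 held each motif. Besides REG4 and AGR2, AGR3 held ACAAAG and TATAAA, and MUC2, FCGBP, CREB3L1 and SPDEF held none of the 3 in this window. A match describes the sequence and does not show that a protein binds there.

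REG4, a secreted C-type lectin of the regenerating family found in intestinal secretory cells, moved in opposite directions in the knockdowns. It had 67.3, 91.2 and 76.8 normalised counts with siCtrl and 128, 151, 160.1 and 135 with siSOX9. Every siSOX9 library was above every siCtrl library, with means of 143 ± 14.6 (SD, n = 4) and 78.4 ± 12.1 (SD, n = 3). REG4 rose with a log2 change of 0.87 (adjusted p 0.0235) in the authors' deposited table, and of 0.91 (SE 0.16) with an adjusted p of 0.00309 in limma-voom. Without siCtrl library a, limma-voom gave 0.70 with an adjusted p of 0.0513.

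In experiment 3, REG4 had 68.1 and 70.1 normalised counts with siCtrl and 16.0, 24.4, 15.6 and 33.6 with siY14. Every siY14 library was under both siCtrl libraries, and the means were 69.1 ± 1.40 (SD, n = 2) and 22.4 ± 8.49 (SD, n = 4). REG4 fell with a log2 change of -1.62 (adjusted p 2.82e-04) in the authors' deposited table, and of -1.69 (SE 0.29) with an adjusted p of 0.0197 in limma-voom. Libraries b and d were higher than a and c here, whereas for TFF1 they were lower. The limma-voom call was lost without siCtrl library a (adjusted p 0.226) or b (0.179), settings in which no gene passed, and with the siY14 libraries summed in pairs (0.184).

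The siSOX9 change of REG4 minus its siY14 change was 2.59 (SE 0.33) on the log2 scale, with an adjusted p of 2.05e-04 in a joint limma-voom model. Over 16 alternatives this difference ran from 2.39 to 2.78, and it passed in those that kept both siCtrl libraries of experiment 3. None of the alternatives summed the siY14 libraries in pairs, so all took these libraries as independent. KRT20, a keratin of differentiated colonocytes, showed the same opposite movement. It had 89.3 to 102 normalised counts in the siCtrl libraries and 194 to 245 in the siSOX9 libraries, and 88.7 to 102 against 13.8 to 31.2 with siY14. The difference between its changes was 3.29 (SE 0.32) with an adjusted p of 2.45e-05 in limma-voom. The 10 enterocyte and colonocyte markers together, most of whose counts were those of VIL1, summed to 5107 normalised counts with siCtrl and 3016 with siSOX9, and at 4997 and 3802 for siY14, in the authors' deposited tables. Other called colonocyte markers did not move as KRT20 did. VIL1 fell with both knockdowns, with log2 changes of -1.19 for siSOX9 and -0.57 for siY14 in the authors' deposited tables. CA2, a carbonic anhydrase, rose with siSOX9 (0.68, adjusted p 0.0125) and had a log2 change of 0.48 with siY14 (adjusted p 0.125) in the authors' deposited tables. In all, 2 of the 10 rose and 1 fell with siSOX9, where 1.19% of all genes with reads were higher and 2.27% lower. With siY14, 0 rose and 2 fell, where 3.81% of all genes with reads were higher and 5.35% lower. Of the 10, only 4 had a mean of at least 10 in the siSOX9 experiments and 3 in experiment 3. Of these 10, FABP1, CEACAM7 and CA1 were listed under 1 with siCtrl in the authors' deposited siSOX9 table. COL1A1 likewise changed differently in the knockdowns, by 1.82 (SE 0.47) with a limma-voom adjusted p of 0.0197. The part of such cells in the REG4 result was not tested, and in bulk RNA fewer cells of a type and less RNA per cell cannot be told apart.

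AGR2 is an ER protein of the disulfide isomerase family that is required for MUC2 production. It was the most abundant of the 10 genes and the only one called lower in both authors' deposited tables. How many of all genes were called lower in both was not counted. Its mean was 27319 normalised counts with siCtrl and 18138 with siSOX9 in the authors' deposited table, where it fell by 0.59 on the log2 scale with an adjusted p of 0.0494, just under the threshold. With siY14 it fell by 0.54, from 32720 to 22489 (adjusted p 0.0202), in the authors' deposited table. The siCtrl libraries a and b of experiment 3 had 33301 and 32139 normalised counts, whereas values per library in the other groups were not recovered. Whether the AGR2 groups overlap could therefore not be checked, and no limma-voom test or difference between the knockdowns was made for it. The 8 epithelial markers, most of whose counts were those of KRT8 and KRT18, summed to 347365 normalised counts with siCtrl and 305873 with siSOX9, and to 428828 and 317892 for siY14, in the authors' deposited tables. KRT8 and KRT18 passed for neither knockdown. Of the 8, VIL1, the brush border protein villin, was the marker that fell with siSOX9, and VIL1 and the cadherin CDH1 fell with siY14, where CDH1 had a log2 change of -1.21 in the authors' deposited table. The part of these values in the AGR2 result was not tested.

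AGR3, a paralog of AGR2, was near the detection limit. It had 3.19, 1.36 and 0 normalised counts with siCtrl and 1.40, 1.24, 0 and 0 with siSOX9, from 12 and 6 reads, and the authors' deposited table gave an adjusted p of 1.00. In experiment 3 it had 0 reads with siCtrl and 8 with siY14, at 0.800, 1.63, 2.23 and 3.48 normalised counts in libraries a to d. Pooled, this was 1.20-fold the 1.58 normalised counts that 3 reads over the siCtrl group would give, with no allowance for counting error in the 8 reads. The authors' deposited table gave an adjusted p of 0.636.

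CREB3L1 encodes an ER-bound transcription factor that is cut and released to drive secretory genes, and it had the largest siSOX9 log2 fold change of the set. It had 20.3, 28.6 and 43.6 normalised counts with siCtrl and 2.52, 12.4, 3.37 and 4.14 with siSOX9. The groups did not overlap, although siSOX9 library b stood well above the other siSOX9 libraries, and the counts rest on 112 and 23 reads. CREB3L1 fell with a log2 change of -2.46 (adjusted p 0.0172) in the authors' deposited table, and of -2.55 (SE 0.48) with an adjusted p of 0.00424 in limma-voom. Over the alternatives to the authors' value, that fit among them, the log2 fold change ran from -3.08 to -1.39, and it passed in 13 of 13 with a test.

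In experiment 3, CREB3L1 had 8.07 and 14.0 normalised counts with siCtrl and 12.0, 0, 12.3 and 0 with siY14. Libraries a and c were within the siCtrl range, and libraries b and d, the other pair, had 0 reads, which allows up to 2.44 and 3.48 normalised counts. The siY14 mean of 6.07 in the authors' deposited table (adjusted p 0.787) therefore describes neither pair. CREB3L1 was under the minimum for limma-voom in this table, so the difference between the knockdowns was not tested.

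SPDEF, an ETS-family factor that drives goblet cell maturation, had 19.7, 15.0 and 24.9 normalised counts with siCtrl and 11.2, 14.8, 8.42 and 16.6 with siSOX9. The groups overlapped slightly, and the log2 change of -0.64 missed the threshold in the authors' deposited table (adjusted p 0.965), against -0.68 (SE 0.28) with 0.121 in limma-voom. With depth class as a term the limma-voom adjusted p was 0.0451, the setting of 13 in which it passed. With siY14, SPDEF had 32.8, 25.3, 35.7 and 25.5 normalised counts, between the siCtrl values of 24.2 and 40.8, and the authors' deposited table gave a log2 change of -0.12 with an adjusted p of 1.00.

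**Figure D3:**
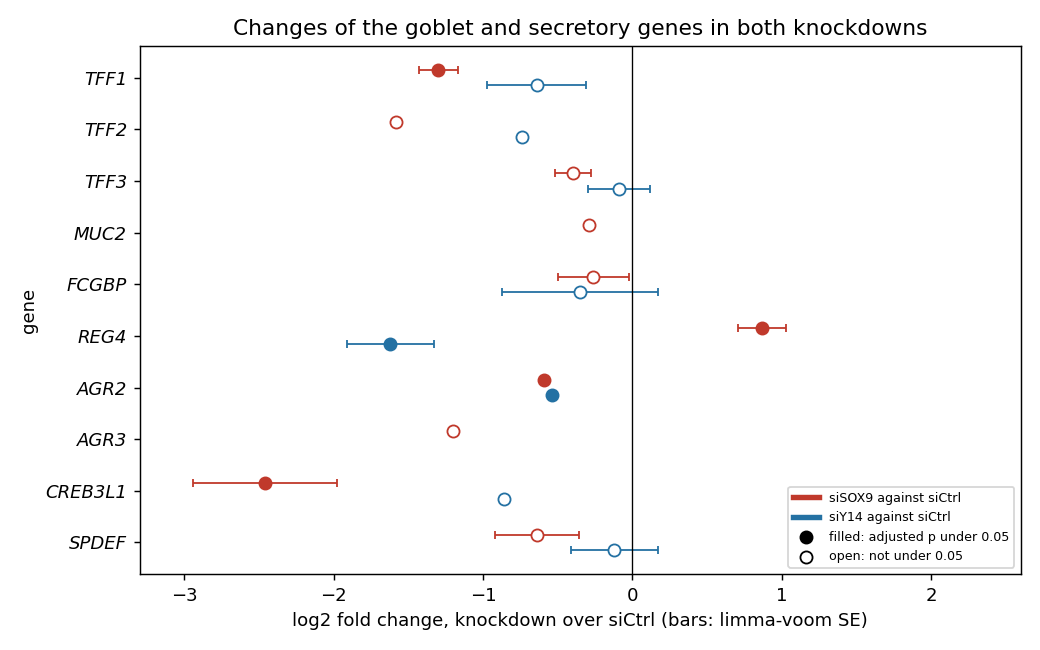
Points are the log2 fold changes of the authors' deposited tables, filled where the authors' adjusted p was under 0.05, with bars for the standard error of the limma-voom fit where that fit tested the gene. REG4 lies right of 0 with siSOX9 (0.87) and left of it with siY14 (-1.62), and MUC2 and AGR3 have no siY14 point because their siCtrl group was at 0.

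Counted over the set, 3 of 10 genes were lower with siSOX9 (TFF1, AGR2 and CREB3L1) and 1 was higher (REG4) in the authors' deposited table, where 2.27% of all 18747 genes with reads were lower and 1.19% higher. With siY14, 2 of 10 were lower (AGR2 and REG4) and 0 higher, where the authors' deposited table held 5.35% lower and 3.81% higher of 17706 genes. In limma-voom 6 of the 10 were tested for siSOX9, of which 3 were lower (TFF1, TFF3 and CREB3L1) and 1 higher, against 10.0% and 8.61% of all genes tested. For siY14 5 were tested and REG4 was lower, with 6.73% of all genes tested lower and 3.71% higher. With a pseudocount of 1 in place of voom that siY14 background moved from 174 higher of 490 called to 335 of 670. Groups did not overlap for 4 of the 6 genes with siSOX9, against 28.8% of the 5112 genes fitted, and for 2 of the 5 with siY14, against 51.0% of 4696. The difference between the knockdowns passed for 1 of 5 genes, REG4, against 14.8% of the 4144 genes tested. It was -0.64 (SE 0.34, limma-voom adjusted p 0.221) for TFF1, -0.29 (SE 0.24, adjusted p 0.476) for TFF3, -0.61 (SE 0.41, adjusted p 0.345) for SPDEF and 0.20 (SE 0.54, adjusted p 0.840) for FCGBP. For these 4 genes a difference between the knockdowns was therefore not shown, nor were the changes shown to be alike.

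Other genes of the secretory programme were taken as 5 lists with 72 genes in all. The lists were chosen with earlier results of these data known, so their shares against all genes are no independent test. Of 15 transcription factors and Notch ligands, 14 had reads, and 4 fell and 0 rose with siSOX9 in the authors' deposited table, where 2.27% of all genes with reads were lower. The median log2 fold change of those with a mean of at least 10 was -0.39, against 0.01 over all such genes. DLL4, a Notch ligand, had 300.2 to 309 normalised counts in the siCtrl libraries and 93.2 to 137 in the siSOX9 libraries, and fell by 1.35 on the log2 scale (adjusted p 6.87e-06) in the authors' deposited table. KLF4, a zinc finger factor of goblet cell differentiation, fell by 0.90, and the epithelial factor ELF3 by 0.60 in the authors' deposited table. CREB3L2, a relative of CREB3L1, fell by 0.59 (adjusted p 0.0434) in the authors' deposited table. With siY14, 0 of the 14 passed in the authors' deposited DESeq table, 2 had an unadjusted p under 0.05 (both lower) and 0 of 6 passed in limma-voom. Over all genes tested in limma-voom for siY14, 1579 of 4696 had an unadjusted p under 0.05, in either direction. The list median was -0.13, against 0.00 over all genes.

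Enzymes that build the O-linked sugars of mucins showed 4 of 13 lower and 0 higher with siSOX9 in the authors' deposited table. Of all genes with reads there, 2.27% were lower and 1.19% higher. Among genes with a mean of at least 10, as 11 of the 13 enzymes had, 424 of 13649 were lower. The list median was -0.45, against 0.01 over all genes with a mean of at least 10. ST6GALNAC1, which caps these sugars with sialic acid, had 192 to 302 normalised counts in the siCtrl libraries and 59.0 to 80.3 in the siSOX9 libraries, and fell by 1.76 (adjusted p 6.88e-04) in the authors' deposited table. The transferases GALNT7 and GALNT12, which act at the first sugars of the chain, fell by 1.22 and 0.76, and B3GNT3, which extends it, by 0.88 in the authors' deposited table. With siY14, 1 of 13 fell, GALNT12, by 0.77 (adjusted p 0.0282) in the authors' deposited table, and the list median was -0.22. A share of 1 in 13 is near that over all genes, of which 5.35% were lower with siY14. The siSOX9 change of ST6GALNAC1 minus its siY14 change was -1.31 (SE 0.43) with a limma-voom adjusted p of 0.0545, and that of DLL4 was -0.94 (SE 0.35) with 0.0822.

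Of 16 other goblet cell products, 14 had reads, and 2 fell with each knockdown in the authors' deposited tables, against 2.27% of all genes with siSOX9 and 5.35% with siY14. BCAS1 had 140.1 to 214 normalised counts in the siCtrl libraries and 69.6 to 107 in the siSOX9 libraries, and fell by 1.02 (adjusted p 0.0217) in the authors' deposited table. It also fell with siY14, by 1.43 (adjusted p 0.0395) in the authors' deposited table, though limma-voom gave 0.0828. CAPN9, a calpain of the digestive tract, fell by 1.00 with siSOX9 and had a log2 change of -0.78 with siY14 (adjusted p 0.0848) in the authors' deposited tables. KLK1, a tissue kallikrein, fell by 0.75 with siY14, and its log2 change with siSOX9 was -0.84 (adjusted p 0.697) in the authors' deposited tables. For KLK1 limma-voom gave similar adjusted p of 0.0664 for siSOX9 and 0.0633 for siY14. The difference between the knockdowns did not pass for CAPN9 (-0.18, SE 0.38, limma-voom adjusted p 0.789) or KLK1 (-0.09, SE 0.43, adjusted p 0.909). The medians of this list were -0.23 with siSOX9 and -0.41 with siY14.

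Of 12 other mucins, 10 had reads in the siSOX9 experiments and 9 in experiment 3, and 0 passed in the authors' deposited DESeq tables, where 0 had an unadjusted p under 0.05 for either knockdown. In limma-voom 0 of 1 mucin tested passed. Among 15 ER folding genes with reads, ERN2, the stress sensor IRE1-beta of mucous epithelia, fell by 1.16 with siSOX9 (adjusted p 7.93e-07) in the authors' deposited table, and no other passed. Over all genes with reads there, 2.27% were lower. With siY14, 0 of 15 passed in the authors' deposited DESeq table, while 5 were lower at an unadjusted p under 0.05, and none was tested in limma-voom. The share of all genes at that unadjusted p was not counted in DESeq. In limma-voom 1579 of 4696 genes had one for siY14, in either direction. That fit held none of the ER genes, so whether the 5 exceed the share over all genes was not tested. The medians of the ER list were -0.07 with siSOX9 and -0.26 with siY14. The Paneth cell markers, the other secretory type, summed to 257 normalised counts with siCtrl and 92.0 with siSOX9, nearly all from PLA2G2A, which fell by 1.50 (adjusted p 0.0495) in the authors' deposited table. DEFA5 and DEFA6, the defensins that define Paneth cells, were listed at 0. Enteroendocrine markers summed to 75.8 and 72.1 normalised counts and tuft cell markers to 37.0 and 43.5 in the authors' deposited siSOX9 table. For siY14 the sums with siCtrl and siY14 were 91.1 and 70.5 for Paneth, 47.1 and 86.0 for enteroendocrine and 30.9 and 16.9 for tuft cell markers in the authors' deposited table, and 0 of these markers passed there or in limma-voom, with 0 at an unadjusted p under 0.05 in DESeq.

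**Figure D4:**
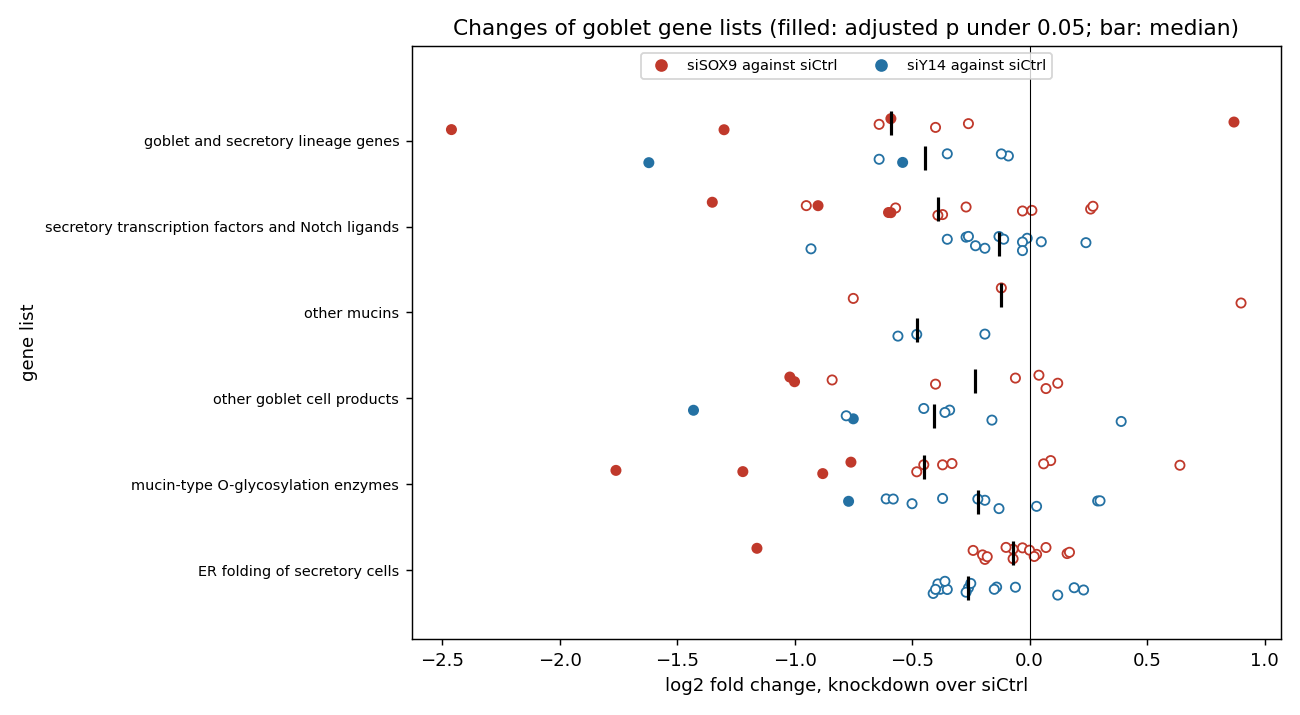
Each point is a gene with a mean of at least 10, placed by its log2 fold change in the authors' deposited table and filled where the authors' adjusted p was under 0.05, and black bars are list medians. REG4 (0.87 with siSOX9) is the filled point right of 0, and the filled siSOX9 points of the other lists all lie left of it.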

How the data were processed

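RNA-seq of 13 DLD-1 samples was used. The submitters' processing notes name the build hg19 and the tools DESeq, HTSeq, SAMtools, HISAT2, Bowtie and TopHat2. Versions, order, settings and any use of strand in counting are not given in the sources used here. From the authors come 2 comparison tables. Per the file headers, each gives a mean signal per group (read counts divided by size factors), a fold change that is the ratio of these means, and its log2 value. The authors' p-value and its adjusted form follow. Which column was the knockdown was settled from the group sizes that the deposited overall mean implies.

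Each deposited mean, with 15 significant digits, was taken as a weighted sum of whole reads. All sets of reads were searched, and a gene was used where exactly 1 set gave the printed mean and at most 0.05 wrong sets were expected. This recovered 54.5% and 50.2% of genes with reads in the siSOX9 and siY14 tables, and no mean above 813 or 736, respectively, was tried in the 4-library groups, a level that AGR2 exceeded. Of 8608 means tried for the siY14 group, 66 matched no set of whole reads and were not used. Tested on simulated data, 0 of 599 and 0 of 591 sets for the siSOX9 table and 0 of 597 and 0 of 594 for the siY14 table were wrong. Means moved off a whole-read sum were accepted in 1 of 599, 5 of 591, 0 of 597 and 2 of 594 cases. Python 3.11.15 was used.

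Recovered reads were fitted for genes whose mean reached 10 with limma 3.58.1 (voom, offset 0.5) in R 4.3.3, using the authors' size factors, over 5112 and 4696 genes. The difference between knockdowns used 1 joint model over 4144 genes. On simulated data the siSOX9 design over 5112 genes found 89 of 94 changes of 2-fold and 105 of 106 of 4-fold, and 11 of its 205 calls were false. The siY14 design over 4696 genes found 77 of 103 and 97 of 97, and 6 of 180 calls were false. The simulated libraries were drawn independently with a fixed spread, without the pairs seen among the siY14 libraries. The simulated false calls therefore do not give the error rate of the real siY14 calls. Alternatives were TMM factors, no minimum, other pseudocounts, each library left out, the deepest libraries left out, a depth term and an adjusted p of 0.01. Summing the siY14 libraries in pairs was added after seeing the data.

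The genes and lists were chosen with earlier results of these data known. All 10 genes are named. Further genes were named where an authors' adjusted p was under 0.05 and a group mean reached 10, which gave 12, and KRT20 and the cell type markers with values were chosen after their values were seen.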

Additional observations from a re-analysis of the deposited data

Results flagged for a closer look

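CREB3L1 stood at 12.4 normalised counts in siSOX9 library b, away from the other siSOX9 libraries by 0.835 of the range of that group, which is past the limit of Dixon's test for 4 samples. MUC2 stood at 4.89 normalised counts in siY14 library b, away from the others by 0.912 of the range, on 6 reads. Chance puts about 1 in 20 groups past this limit. The changes of REG4 differed between the knockdowns by 2.59 on the log2 scale in the joint limma-voom model, higher with siSOX9 in 4 of 4 libraries and lower with siY14 in 4 of 4.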

How the results depend on the processing

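At a threshold of 0.01 on the adjusted p in the authors' deposited tables, 1 of the 10 genes was called for siSOX9 and 1 for siY14. The share of all genes passing 0.01 was not counted. The limma-voom fit of recovered reads called 1 for siY14. With the siY14 libraries summed in pairs it called 0, and over all 4696 genes also 0, with 962 at an unadjusted p under 0.05. Leaving out each library in turn, limma-voom called from 2 to 4 of the goblet genes for siSOX9, the lowest without siCtrl library a, and from 0 to 1 for siY14, the 0 without either siCtrl library. Those settings left 1 siCtrl library, assumed to vary like the others, and 706 and 799 genes had an unadjusted p under 0.05. Over all genes, 953 were called for siSOX9, and 2176 with depth class as a term. With 1 library left out, the siSOX9 calls ran from 660 of 5112 genes, without siCtrl library a, to 1157, without siSOX9 library a. The lowest count of goblet genes thus came in the setting with the fewest calls over all genes. For siY14 490 were called, with 211 without siY14 library b and 117 without d. Leaving out each library moved the siY14 change of SPDEF between -0.47 and 0.28. It turned to 0.28 without siCtrl library b, 0.03 without siY14 library b and 0.01 without d. The FCGBP difference ran from -0.17 to 0.54, and turned to -0.09 without siCtrl library b of the siY14 table and -0.17 without siY14 library d. The cause was not tested. Of single-gene values recomputed with a test, 334 kept direction and side of the threshold, 26 lost the call, 13 gained it and 5 reversed. Of those with no test, 79 moved by less than the limma-voom standard error, or by a small fixed amount where there was none, and 9 by more. Of the counts of goblet genes called, 39 stayed within 1.5 times and 7 did not. Depth limits MUC2, AGR3 and TFF2, which rest on few reads. It also limits CREB3L1, with 23 reads over the siSOX9 libraries, and FCGBP, with 23 over the siCtrl libraries of experiment 3. No paired analysis was possible because the recovered libraries carry no sample name or replicate number.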
